A study of Mus musculus with 14 samples.

Results

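MicroRNA gene loci are the entries of the deposited expression tables that carry the name of a microRNA gene and no other name. They were chosen by their measured values: a locus was taken when its only name began with Mir and a digit, did not end in hg, and its FPKM was above 0 in at least 3 of the 14 libraries. FPKM is a fragment count scaled by transcript length and by the library's total. Of the 67811 loci in the tables, 865 had such a name. Of these, 835 were listed at 0 in every library, 8 were above 0 in 1 or 2 libraries and 22 met the rule. Just inside the rule, Mir3068, Mir8102 and Mir133c were above 0 in exactly 3 libraries, with means over all libraries of 1.56, 1.29 and 0.0235 FPKM. Just outside it, Mir1983 and Mir466i were above 0 in exactly 2 libraries, with means of 1.98 and 1.49 FPKM.

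The libraries were made from polyadenylated RNA of whole heads, brain included, of C57BL/6J mouse embryos at day E12.5. The 5 WT libraries came from Zcchc8+/+ heads, the 3 HET libraries from Zcchc8+/- heads and the 6 KO libraries from Zcchc8-/- heads, and the labels record no other allele or agent. The series addresses what loss of Zcchc8 does to RNA in the embryonic head. The labels do not say how many embryos lay behind each library, so p-values measure the spread between these libraries, which may be partly technical.

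A microRNA gene is transcribed as a long primary RNA. The nuclear enzyme Drosha and its partner Dgcr8 cut a hairpin out of it, Exportin 5 carries the hairpin to the cytoplasm, Dicer trims it to a short duplex, and an Argonaute protein holds the mature strand, whose seed pairs with target mRNAs. ZCCHC8 bridges the RNA helicase MTR4 and the RNA-binding protein RBM7 in a nuclear complex that delivers unstable transcripts to the exosome, the RNA-degrading machine of the nucleus. Libraries of this kind read fragments of longer RNA across a microRNA gene, such as the primary transcript or other RNA from the same place, and not the mature strand.

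RefSeq (GRCm38.p6, the same build as mm10) held mature sequences for 21 of the 22 loci. The 33 sequences had 33 different seeds, so the loci share no targeting family among themselves. The sequences for the 9 loci whose level differed between KO and WT show which microRNAs these loci are named for. They are printed 5′ to 3′ with the seed, bases 2 to 8, in capitals.
miR-7655-5p: cGGCCCACggagcuccuaaaga
miR-7655-3p: uUUAUGACgcuccgugggccug
miR-199b-3p: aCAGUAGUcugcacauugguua
miR-1946b: gCCGGGCAgugguggcacaugcuuuu
miR-7228-5p: uGGCGACCugaacagaugu
miR-7228-3p: aGUGUUCGgucuccagu
miR-7a-5p: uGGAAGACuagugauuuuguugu
miR-7a-2-3p: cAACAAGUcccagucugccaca
miR-5620-5p: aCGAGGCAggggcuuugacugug
miR-3569-5p: uCGGAGGAgagcagaccggug
miR-3569-3p: uCAGUCUGcgcuccucuccagc
miR-8105: aGGCGACUggcgagacccgaag
miR-652-5p: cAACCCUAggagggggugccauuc
miR-652-3p: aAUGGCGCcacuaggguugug
Outside the 22 loci, the seed of miR-7a-5p, the product of Mir7-2, is also carried by Mir7-1 and Mir7b, and that of miR-199b-3p by Mir199a-1 and Mir199a-2. The single-name loci Mir7-1, Mir7b and Mir199a-1 were listed at 0 in all 14 libraries. The seed of miR-5620-5p is shared with Mir7689 and that of miR-1946b with Mir8111.

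The hairpins from which the mature strands are cut are shown for 3 of the loci called higher in KO. Capitals mark the mature strands that the RefSeq source held. For Mir199b it held the 3p strand alone, so lower case there does not mean that no other strand is made. Mir7655 lies at chr2:18057846-18057903 on the plus strand, Mir199b at chr2:32318460-32318569 on the plus strand and Mir7-2 at chr7:78888277-78888373 on the plus strand (GRCm38).
Mir7655: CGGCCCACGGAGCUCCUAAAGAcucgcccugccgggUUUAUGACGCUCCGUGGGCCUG
Mir199b: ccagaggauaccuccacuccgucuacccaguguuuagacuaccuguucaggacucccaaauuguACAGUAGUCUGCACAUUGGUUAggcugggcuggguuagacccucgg
Mir7-2: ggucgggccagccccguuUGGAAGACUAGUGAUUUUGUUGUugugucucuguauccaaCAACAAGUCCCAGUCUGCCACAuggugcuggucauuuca
In the expression tables each of these hairpins sits inside a longer locus range, and the same held for all 22 loci.

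The targeted gene followed the labels. Zcchc8 was at 36.6 to 42.3 FPKM in WT, 24.0 to 27.2 in HET and 9.27 to 20.6 in KO, and the genotypes did not overlap (two-sided exact permutation tests: KO against WT, p = 0.00433; HET against WT, p = 0.0357, each the smallest these group sizes allow). Total depth is unknown, and relative depth, set to 1.0 in WT1, was 1.0 to 1.2 in WT, 1.23 to 1.32 in HET and 1.15 to 1.49 in KO. Of 16 head markers chosen for this check 15 were found, including the neuronal genes Stmn2 and Dcx and the cartilage gene Col2a1, while the liver, heart, gut and kidney genes Alb, Afp, Nppa, Myl7, Cdx2 and Umod stayed under 1 FPKM in every library. With Pax8 these 7 summed to 2.71 to 4.30 FPKM in WT, 2.82 to 3.62 in HET and 1.60 to 4.28 in KO. The kidney and thyroid gene Pax8, which is also made in the hindbrain, averaged 2.78 FPKM in WT. Tubb3 had no locus of that name. The 15 head markers, dominated by globin RNA, summed to 5509 to 9131 FPKM in WT, 6177 to 9797 in HET and 7478 to 9955 in KO, and 4 of them differed in KO: Krt5, Ttr and Actn2 were lower by 0.76, 0.55 and 1.14 on the log2 scale and the locus that joins Sox2 with Sox2ot and Mir1897 was higher by 0.23 (limma-trend adjusted p = 3.11e-05, 0.0121, 0.0205 and 0.0469). Their part in the microRNA values was not tested, and in whole heads fewer cells of a type and less RNA per cell cannot be told apart.

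More microRNA loci gave signal in KO heads. Of the 22 loci, 13 to 17 were above 0 in a WT library (median 15), 12 to 16 in a HET library (median 15) and 16 to 20 in a KO library (median 18.5). Counting from 1 FPKM upward, 1 to 4 loci passed in a WT library, 1 or 2 in a HET library and 7 to 11 in a KO library. Detection over the whole table moved the same way, with 26902 to 27622 loci above 0 in WT, 27341 to 27717 in HET and 28310 to 32667 in KO. Median relative depth was 1.15 in WT, 1.3 in HET and 1.315 in KO, and its part in these counts was not tested. The loci were chosen on detection, so these counts are a description.

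Among the loci, 10, Mir149, Mir8105, Mir218-2, Mir7655, Mir199b, Mir219a-2, Mir31, Mir5620, Mir3569 and Mir7-2, were above 0 in all 14 libraries. Mir8102, Mir3068 and Mir210 were above 0 in KO libraries alone, and Mir652 was above 0 in no KO library. In the plot of all 22 loci the KO columns are brighter over most rows, and the exceptions sit at the bottom.

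**Figure D1:**
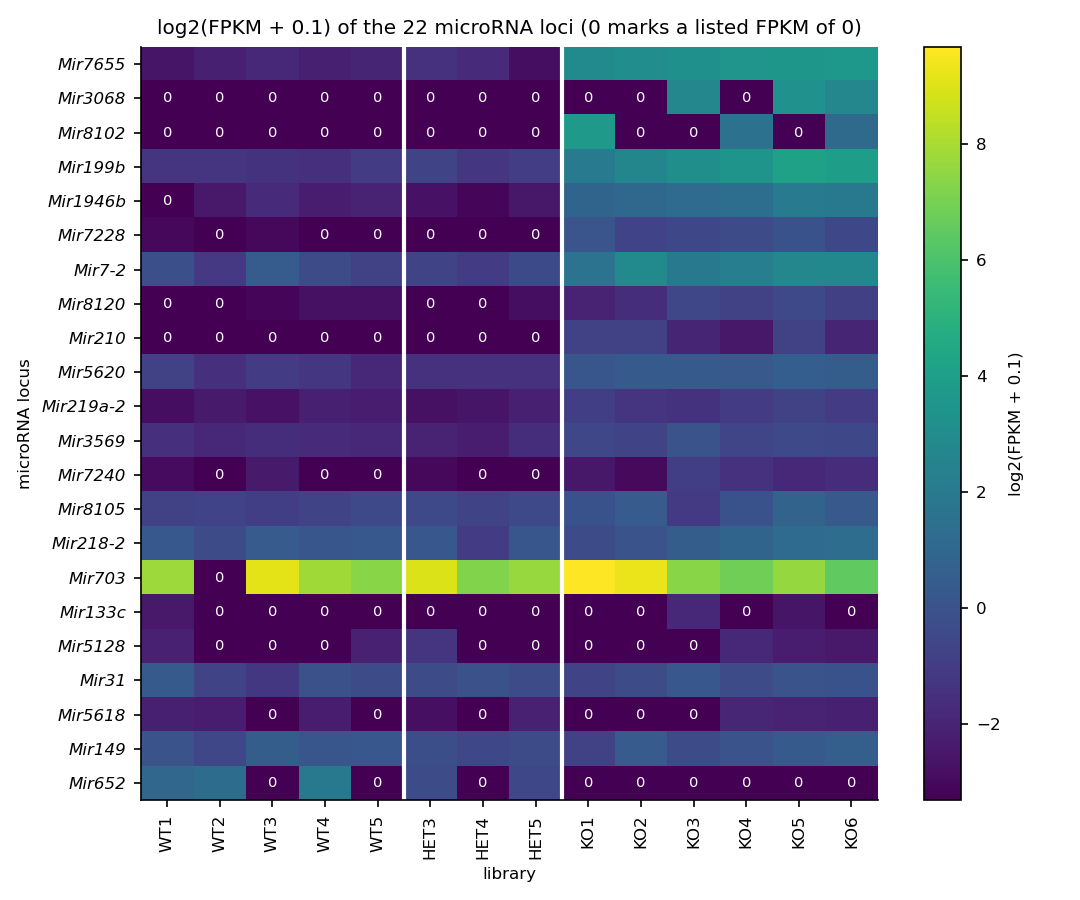
Level of each of the 22 microRNA loci (rows) in each of the 14 libraries (columns, ordered by genotype), as log2(FPKM + 0.1) on the colour scale; a printed 0 marks a listed FPKM of 0. Mir703 is the brightest row, up to 813 FPKM, and Mir652 is at 0 in all 6 KO libraries.

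Differences were tested with limma-trend on log2(FPKM + 0.1), fitted to the 18217 loci that reached 0.5 FPKM in at least 3 libraries, with p-values adjusted over all of them and a threshold of 0.05. The added 0.1 shrinks the log2 differences of low loci. Of the 22 microRNA loci, 15 entered the fit and 7 were too low. In KO against WT, 8 of the 15 were called higher, where 19.0% of all tested loci were, and 1 was called lower, where 5.61% were. In 10 of the 22 loci, 7 of them tested, every KO library was above every WT and every HET library. The background of this pattern against WT was 15.3% of tested loci, and every KO library was below every WT library in 1.99% of tested loci and in 0 of the 15. Over all tested loci 3463 were called higher and 1022 lower with the deposited scaling, 2338 and 3801 after quantile normalization, and 7185 and 279 in the authors' quantile-normalized log2 matrix, where the median of all log2 differences was 0.21. The shares also have to be read with the filter in mind. Only 7 of the 15 reached it in at least 3 WT and HET libraries. The other 8 entered through KO libraries and had to be higher there, so the counts support nothing about microRNA loci as a class. Among the 7, Mir7-2 and Mir8105 were called higher and Mir652 lower. Mir652, at 0 in every KO library, met the rule and the filter through WT and HET libraries alone and had to be lower in KO.

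The largest log2 difference, with the added 0.1, was at Mir7655, whose hairpin lies in intron 1 of Mllt10, on the same strand. Mllt10 encodes a cofactor of the histone methyltransferase DOT1L. The WT libraries listed 0.0675, 0.124, 0.175, 0.121 and 0.158 FPKM and the HET libraries 0.263, 0.191 and 0.0388 FPKM. The KO libraries ran from 7.31 through a median of 9.98 to 12.0 FPKM. No KO library came near the other genotypes, and the mean was 76.1 times that of WT. The log2 difference was 5.43 (SE 0.23, limma-trend adjusted p = 9.47e-11). Mir7655 reached the filter only through KO libraries and had to be higher there, so this p-value is no independent support. Without the filter it was also called (limma-trend adjusted p = 2.16e-09).

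Mir199b came next. Its hairpin lies in intron 15 of Dnm1, the neuronal dynamin that pinches off synaptic vesicles, on the opposite strand. The WT libraries listed 0.296, 0.293, 0.27, 0.248 and 0.381 FPKM and the HET libraries 0.535, 0.314 and 0.412 FPKM. In KO the values spread from 3.91 through a median of 9.49 to 17.1 FPKM. The groups were apart, although KO libraries differed among themselves by more than at Mir7655. The KO mean was 34.6 times the WT mean, with a log2 difference of 4.55 (SE 0.30, limma-trend adjusted p = 1.11e-08). Mir199b entered the fit through its KO libraries and had to be higher there, so this p-value is no independent support. Without the filter Mir199b was also called (limma-trend adjusted p = 1.72e-07).

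Mir5620 also lies on the strand opposite to its host, in intron 1 of Clcn4, which encodes an endosomal chloride and proton exchanger. Its WT values were 0.474, 0.253, 0.376, 0.317 and 0.173 FPKM, its HET values 0.265, 0.264 and 0.262 FPKM, and its KO values 1.03 to 1.39 with a median of 1.18 FPKM. The lowest KO library was above the highest WT library, and KO libraries were tightly grouped. The log2 difference was 1.68 (SE 0.17, limma-trend adjusted p = 1.16e-06). Mir5620 reached the filter only through KO libraries and had to be higher there, so this p-value is no independent support. Without the filter it was also called (limma-trend adjusted p = 4.78e-06).

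The remaining loci called higher have hairpins that lie in no coding gene and less than 10 kb upstream of a coding gene's start. At Mir1946b the hairpin ends 2593 bases upstream of the start of Smarca4, the ATPase of the BAF chromatin remodelling complex, on the opposite strand. The WT libraries listed 0, 0.087, 0.208, 0.0964 and 0.139 FPKM, the HET libraries 0.0551, 0.0118 and 0.0811 FPKM, and the KO libraries 1.74 to 4.05 with a median of 2.38 FPKM. Every KO library was several-fold above the highest WT library, and the log2 difference was 3.80 (SE 0.29, limma-trend adjusted p = 4.09e-08). Mir1946b reached the filter only through KO libraries and had to be higher there, so this p-value is no independent support. Without the filter it was also called (limma-trend adjusted p = 4.32e-07).

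Mir7228 lies 9252 bases upstream of Rfc2, a subunit of the clamp loader of DNA replication, on the same strand. WT1 and WT3 listed 0.0219 and 0.0217 FPKM, and every other WT and HET library was at 0. All 6 KO libraries were above 0, from 0.516 through a median of 0.655 to 0.987 FPKM. This locus was thus at or near 0 outside KO. The KO mean was 81.9 times the WT mean, a ratio against a value near 0. The log2 difference was 2.88 (SE 0.21, limma-trend adjusted p = 2.11e-08), and its size is set largely by the added 0.1: it was 1.24 and 0.76 with 0.5 and 1 added, 4.88 in the authors' matrix and 1.26 after quantile normalization, and was called each time. In the authors' matrix, which is blank where FPKM is 0, the WT side of Mir7228 was WT1 and WT3 alone. Mir7228 met the rule and the filter only through its KO libraries and had to be higher there. Its calls are thus a description and no independent support.

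Mir7-2 encodes miR-7a, a microRNA known from neurons and neuroendocrine cells, and lies 7481 bases upstream of Aen, which encodes an apoptosis-related nuclease, on the same strand. It was the member with the most WT signal among those called higher, with WT values of 0.788, 0.343, 1.28, 0.678 and 0.464 FPKM and HET values of 0.538, 0.397 and 0.643 FPKM. The KO libraries ran from 3.04 through a median of 5.5 to 7.34 FPKM. The groups did not overlap. The KO mean was 7.43 times the WT mean, with a log2 difference of 2.77 (SE 0.28, limma-trend adjusted p = 1.17e-06).

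Mir3569 lies 654 bases upstream of Kmt2b, which encodes a histone H3 lysine methyltransferase, on the opposite strand. Its WT values were 0.237, 0.172, 0.229, 0.195 and 0.186 FPKM, its HET values 0.14, 0.108 and 0.226 FPKM, and its KO values 0.533 to 0.906 with a median of 0.593 FPKM. KO3 was the highest, set apart from the others, and all 6 were above every WT library. The log2 difference was 1.26 (SE 0.17, limma-trend adjusted p = 3.11e-05) with the deposited scaling. After quantile normalization it was -0.25 and not called (limma-trend adjusted p = 0.476). Mir3569 reached the filter only through KO libraries and had to be higher there, so its call is no independent support. Without the filter it was also called (limma-trend adjusted p = 4.03e-05).

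The Mir8105 hairpin lies 480 bases upstream of Smarcc2, another BAF subunit, on the same strand. The measured Mir8105 locus (XLOC_007360) is numbered far from Smarcc2 (XLOC_005935). Beside Smarcc2 stands the same-name locus that is at 0 (XLOC_005934). The measured RNA may thus come from the strand opposite the hairpin, which was not tested. WT values of Mir8105 were 0.468, 0.521, 0.44, 0.533 and 0.634 FPKM, and HET values 0.627, 0.537 and 0.642 FPKM. Its KO values were 0.355 to 1.65 with a median of 1.0 FPKM. The groups overlapped, because KO3 was the lowest of all 14 libraries. The log2 difference of 0.75 (SE 0.26) only just passed, at a limma-trend adjusted p of 0.0473, and turned to -0.10 after quantile normalization. The call was lost in 13 of the 14 fits that left out 1 library, which gave adjusted p-values of 0.0523 to 0.1. Without KO3 it was kept, with a log2 difference of 0.99 and an adjusted p of 3.5e-04.

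Mir652 was the locus called lower. It met the rule and the filter through WT and HET libraries alone and had to be lower in KO, so its call is no independent support. Its hairpin lies in intron 1 of Tmem164 on chromosome X, on the same strand. WT1, WT2 and WT4 listed 1.85, 2.33 and 3.71 FPKM, WT3 and WT5 were at 0, HET3 and HET5 listed 0.685 and 0.606 FPKM, and HET4 and all 6 KO libraries were at 0. Libraries at 0 thus occur in every genotype, and the groups overlap there. The log2 difference was -2.83 (SE 0.94, limma-trend adjusted p = 0.0405). The call was lost in 9 of the 14 fits without 1 library, on leaving out each KO library in turn, WT1, WT2 or WT4, with adjusted p-values of 0.0629 to 0.108.

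**Figure D2:**
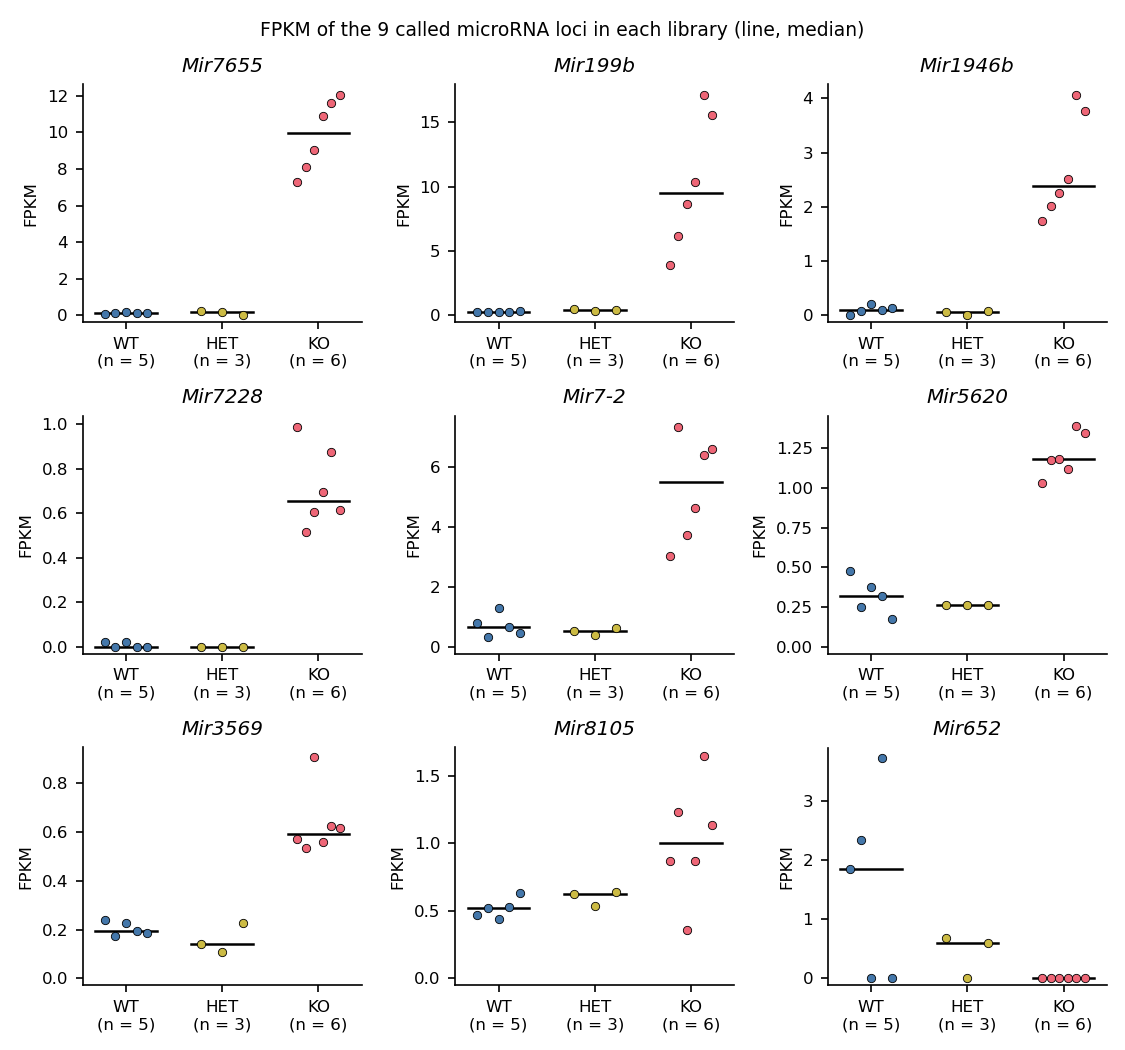
FPKM of the 9 called microRNA loci in each WT, HET and KO library (points; the line is the group median; linear axes that differ between panels). In 7 panels every KO point is above every WT and HET point; at Mir8105 the KO points reach below the WT points, and at Mir652 all KO points are at 0.

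The KO libraries did not contribute alike. Over the 8 loci called higher, KO1 was the lowest KO library at 5 and KO5 the highest at 4. KO1 had the lowest Zcchc8 value of the KO libraries, 9.27 FPKM, and the fewest loci above 0, 28310, while KO5 had 20.6 FPKM and 32319 loci. Leaving out any library kept the KO calls of Mir7655, Mir199b, Mir1946b, Mir7228, Mir7-2, Mir5620 and Mir3569. The filter was set on all 14 libraries, and all of these but Mir7-2 reached it through KO libraries. For them the kept calls are no independent support.

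The 6 other tested loci were not called. Mir3068, in intron 3 of Alkbh1 on the same strand, was listed at 6.25, 9.28 and 6.37 FPKM in KO3, KO5 and KO6 and at 0 in every other library. Mir8102, 193 bases upstream of Pip4k2b on the opposite strand, was listed at 13.1, 2.76 and 2.16 FPKM in KO1, KO4 and KO6 and at 0 elsewhere. These 2 loci thus gave signal in KO alone, each in 3 of 6 libraries. Both met the rule and the filter on KO values alone and had to be higher there. The differences are thus a description, and the p-values given here are no support for them. The log2 differences of Mir3068 and Mir8102 were 3.09 (95% interval 0.36 to 5.82, limma-trend adjusted p = 0.0983) and 2.73 (0.26 to 5.20, adjusted p = 0.107). That of Mir3068 passed in the fits without KO1, KO2 or KO4, at adjusted p = 0.0438 to 0.0483. That of Mir8102 passed with library weights, at 3.65 (adjusted p = 0.00518), as it did against HET (adjusted p = 0.00604).

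Mir149, in intron 1 of the glypican gene Gpc1, Mir218-2, in intron 14 of Slit3, which encodes a secreted guidance protein, and Mir31 overlapped between genotypes. Mir149 was at 0.585 to 1.32 FPKM in WT and 0.491 to 1.42 in KO, with a log2 difference of -0.03 (95% interval -0.54 to 0.48). Mir218-2, a microRNA gene known from motor neurons, was at 0.705 to 1.25 FPKM in WT and 0.693 to 2.44 in KO (log2 difference 0.44, 95% interval -0.21 to 1.10, and -0.096 after quantile normalization). Mir31 was at 0.334 to 1.2 FPKM in WT and 0.534 to 1.04 in KO (0.18, 95% interval -0.32 to 0.68). None was called, with limma-trend adjusted p-values of 0.95, 0.342 and 0.646, and the intervals leave room for moderate changes either way. After quantile normalization Mir149 and Mir31 were called lower, by 0.79 and 0.72 (adjusted p = 0.0254 and 0.0188), so Mir31 changed sign.

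Mir703 gave by far the highest values, and its genotypes overlapped. The WT libraries listed 220, 0, 559, 225 and 163 FPKM, the HET libraries 514, 147 and 203 FPKM, and the KO libraries 90.01 to 813 with a median of 179 FPKM. WT2 alone was at 0. The log2 difference of 2.13 (95% interval -2.13 to 6.40, limma-trend adjusted p = 0.496) rested on that library and was -0.14 without it.

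The 7 loci below the filter were at most 0.635 FPKM in any library. Mir210, a microRNA gene known for its response to low oxygen, was at 0 in all 8 WT and HET libraries and at 0.478, 0.485, 0.158, 0.0798, 0.465 and 0.153 FPKM in KO1 to KO6. Mir219a-2, known from oligodendrocyte maturation, was at 0.0421 to 0.117 FPKM in WT and 0.269 to 0.485 in KO, and Mir8120 at 0 to 0.0508 in WT and 0.149 to 0.635 in KO. In these 3 loci every KO library was above every WT and HET library. Without the filter, in a fit of 47204 loci, Mir219a-2 and Mir8120 were called higher in KO. Their log2 differences were 1.41 and 2.014 (limma-trend adjusted p = 6.01e-05 and 0.000208). Mir210 met the rule on its KO values alone and had to be higher in KO. Its log2 difference of 1.85 in the same fit is thus a description, and its call is no support. Mir7240, at 0 to 0.0896 FPKM in WT and 0.0252 to 0.427 in KO, just passed there (1.17, adjusted p = 0.0486). Mir5128 and Mir5618 were at 0 in part of every genotype, and Mir133c in all 3 HET libraries and in part of WT and KO. Mir133c, Mir5128 and Mir5618 peaked at 0.178, 0.294 and 0.161 FPKM and were not called.

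No difference between HET and WT heads was detected at these loci. None of the 15 tested loci was called in HET against WT by limma-trend, where 0.00549% of all tested loci were, and none had an unadjusted p under 0.05. The largest differences by size were 2.21 at Mir703 (SE 2.34) and -0.90 at Mir652 (SE 1.14), each smaller than its own standard error. The Mir703 difference was -0.06 without WT2. The same fit did not call Zcchc8 itself in HET (log2 difference -0.62, SE 0.18, limma-trend adjusted p = 1.0), so changes of that size could be missed. In KO against HET, 7 loci were called higher, against 17.9% of all tested loci, and 0 lower, against 4.36%. The 7 were Mir7655, Mir199b, Mir1946b, Mir7228, Mir7-2, Mir5620 and Mir3569, with log2 differences of 5.32, 4.17, 4.20, 3.00, 3.06, 1.84 and 1.52. The comparisons share the KO libraries. All of the 7 but Mir7-2 reached the filter through KO libraries and had to be higher there. This count is thus a description and says nothing about microRNA loci as a class. At Mir8105 the difference was 0.56 and did not pass (limma-trend adjusted p = 0.225), and at Mir3569 it was -0.052 after quantile normalization.

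Whether a locus overlaps a host gene was read in 2 ways. In the expression tables, the range of 15 of the 22 loci overlapped a locus of another name. The other 7, Mir8105, Mir8120, Mir31, Mir7228, Mir7-2, Mir210 and Mir1946b, overlapped none. For 11 of the 22, the called Mir8105, Mir1946b, Mir3569 and Mir652 among them, the range also held another locus of the same name. All 11 of these were at 0 in every library. The ranges span 639 to 590648 bases. Each is shared by every locus in a group of overlapping transcripts, so it says little about where the RNA itself starts and ends. In the GENCODE M21 annotation, 12 hairpins lay within a coding gene, all in introns. Of these, 7 were on the gene's strand (Mir149, Mir218-2, Mir3068, Mir7655, Mir5128, Mir5618 and Mir652) and 5 on the opposite strand (Mir199b, Mir133c, Mir703, Mir5620 and Mir7240). Mir31 lay in a long non-coding RNA gene, AL805899.1. The tables state neither strand nor transcript length. Locus numbers appear to run over the plus strand of a chromosome and then over its minus strand. By that order Mir199b and Mir5620 are numbered apart from Dnm1 and Clcn4, their opposite-strand hosts. The measured loci of Mir8105 and Mir5618 would lie opposite to their hairpins. This reading was not tested, and the strand setting was not given. RNA of a microRNA locus and of an overlapping or antisense gene therefore cannot be told apart here.

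By place of the hairpin, a grouping made after the values were seen, 1 of the 5 tested loci on the strand of a coding host was called higher and 1 lower, and 2 of the 3 tested loci opposite to a host were higher. Of the 6 tested loci under 10 kb upstream of a coding start, 5 were called higher. Over all tested loci 19.0% were called higher and 5.61% lower. Of the 8 loci called higher, only Mir7-2 and Mir8105 reached the filter in 3 or more WT and HET libraries, so nothing is read from the counts, and no test was made of the grouping.

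**Figure D3:**
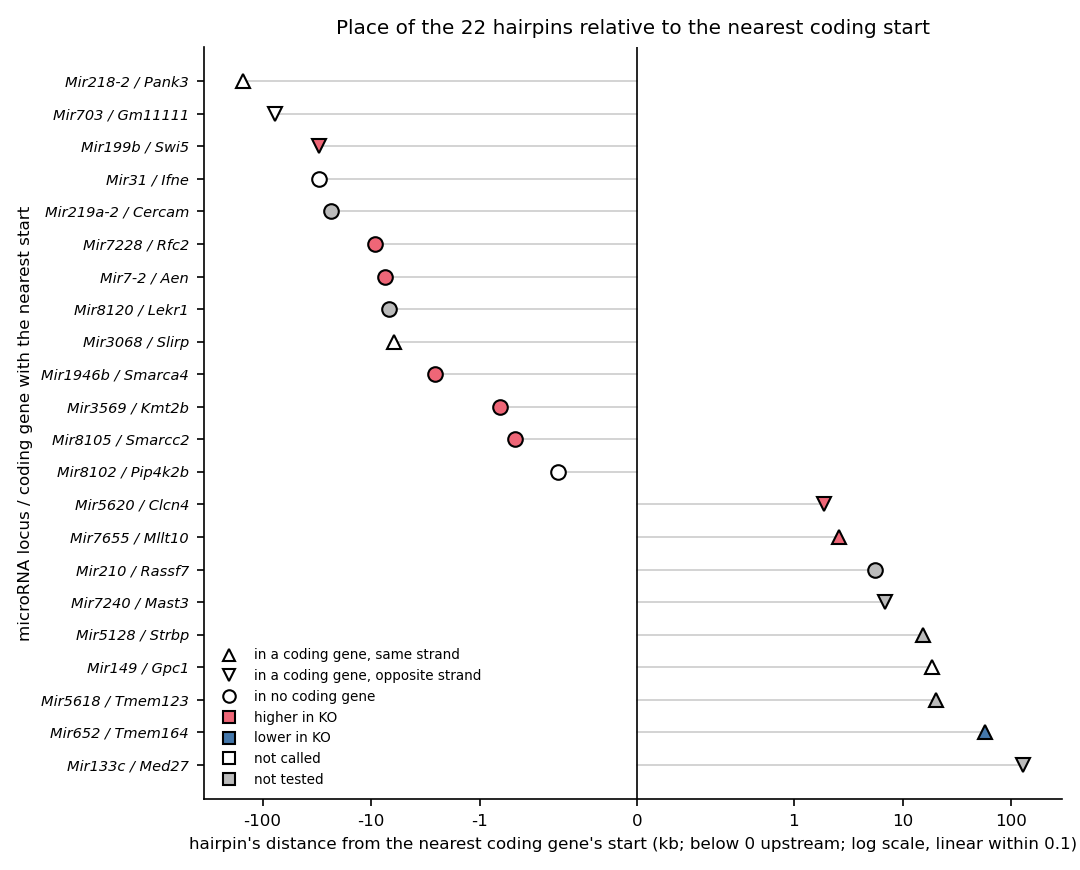
Distance of each hairpin from the start of the coding gene whose start is nearest (x axis, kb on a log scale, below 0 upstream), with the marker showing whether it lies in a coding gene and on which strand and the fill showing the KO against WT call. Of the 7 hairpins in no coding gene that lie between 0 and 10 kb upstream, 5 are marked higher in KO, Mir8102 is not called and Mir8120 was not tested.

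At the hosts of the called microRNA loci, differences were small beside those at the microRNA loci. At Mir7655, the locus of Mllt10, listed with Skida1, was at 18.3 ± 1.42 FPKM (SD, n = 5) in WT and 22.03 ± 2.62 (SD, n = 6) in KO, a log2 difference of 0.26 (limma-trend adjusted p = 0.0241) beside 5.43 at Mir7655. Dnm1 was at 35.2 ± 3.93 FPKM (SD, n = 5) in WT and 34.0 ± 8.12 (SD, n = 6) in KO, and Clcn4 at 23.1 ± 1.05 and 21.1 ± 1.30 FPKM. Neither was called (log2 differences -0.07 and -0.13, limma-trend adjusted p = 0.753 and 0.0651). Tmem164, the host of Mir652, was at 29.0 ± 0.77 and 28.9 ± 1.5 FPKM (log2 difference -0.01).

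The coding genes downstream of the intergenic hairpins also showed small differences, with Lekr1 as the exception. The log2 differences were 0.02 at the Smarca4 locus, -0.05 at Rfc2, 0.06 at Aen, -0.11 at Kmt2b, -0.11 at Smarcc2 and -0.05 at Pip4k2b, none called (limma-trend adjusted p = 0.166 to 0.851). Lekr1, which starts 6802 bases downstream of Mir8120 on the same strand, rose from 1.90 ± 0.23 FPKM (SD, n = 5) in WT to 3.38 ± 0.42 (SD, n = 6) in KO, by 0.80 (limma-trend adjusted p = 3.44e-05). Among hosts of loci that were not called or not tested, Tmem123, the host of Mir5618, was higher by 0.20, and Alkbh1 and Med27, the hosts of Mir3068 and Mir133c, were lower by 0.20 and 0.19 (adjusted p = 0.0389, 0.0375 and 0.039). Gpc1, Slit3 and Strbp were not called.

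**Figure D4:**
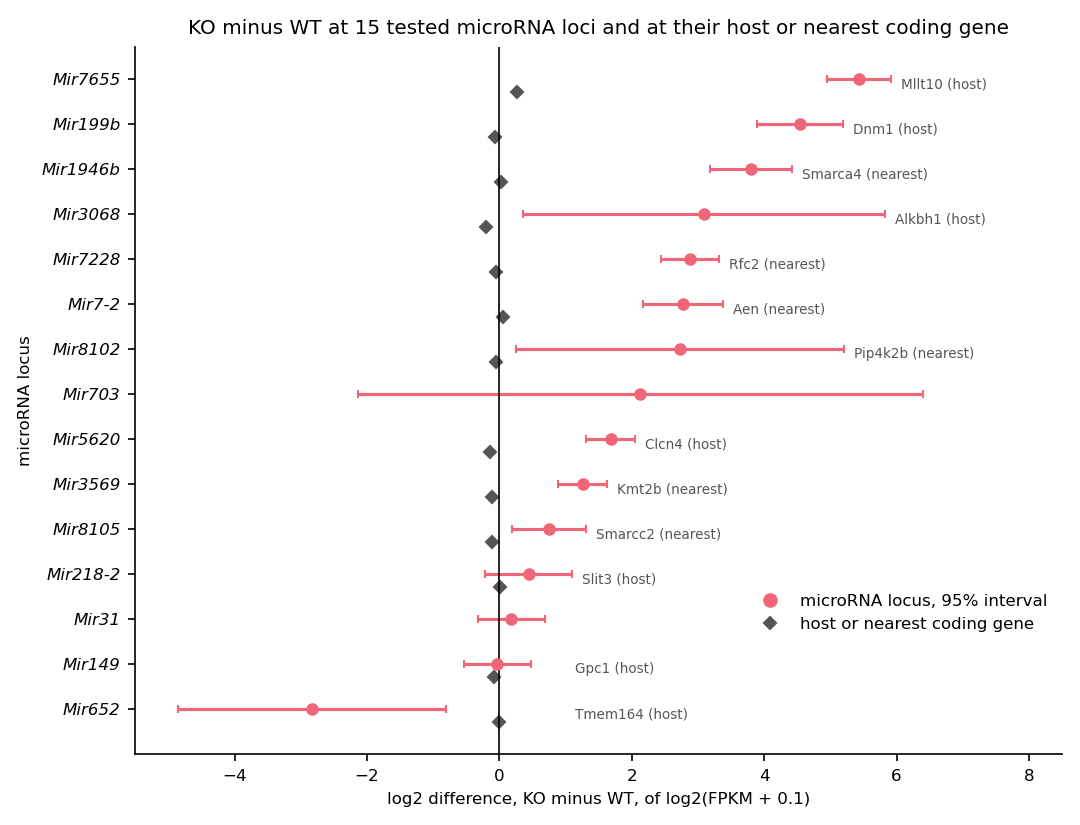
Log2 difference of KO minus WT with its 95% interval at the 15 tested microRNA loci (circles), and the log2 difference at the locus of the coding host or, failing that, of the coding gene with the nearest start (diamonds; Mir31 and Mir703 have none that was tested). The diamonds lie between -0.20 and 0.26, while the circles run from -2.83 to 5.43.

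Some other transcripts within the same ranges differed by more. The 15 shared ranges held 61 other named loci, of which 32 were tested, 8 (25%) were higher in KO and 3 (9.38%) lower, beside 19.0% and 5.61% of all tested loci, and their median log2 difference was -0.05 beside -0.002 over all tested loci. In the range of Mir7655 the transcript RP23-350C1.3 rose from 1.23 ± 0.12 to 6.005 ± 0.545 FPKM (log2 difference 2.20, limma-trend adjusted p = 5.17e-11). In that of Mir219a-2, a locus of Slc27a4 and Urm1 rose from 0.694 ± 0.22 to 3.16 ± 0.79 FPKM, by 2.04, and RP23-443G7.2 rose by 1.64. In that of Mir3569, Zbtb32, a zinc finger repressor gene of lymphocytes, rose from 0.201 ± 0.073 to 0.6 ± 0.133 FPKM, by 1.22 (adjusted p = 1.87e-04). Zbtb32 reached the filter through KO libraries and had to be higher there. RP23-410L16.8, in the range of Mir7240, fell from 1.21 ± 0.19 to 0.439 ± 0.27 FPKM, by 1.54 (adjusted p = 0.0133). These values are SDs over 5 WT and 6 KO libraries.

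Loci of microRNA host transcripts, whose names end in hg, are barred by the rule and were read from the same fit. Of 13 such loci 10 were tested, 7 were higher in KO and 0 lower, beside 19.0% and 5.61% of all tested loci, with a median log2 difference of 0.94. Of the 7, the locus with Mir124a-1hg as its only name and that with Mir99ahg as its only name reached the filter through KO libraries and had to be higher there. The former rose from 0.342 ± 0.176 FPKM (SD, n = 5) to 3.75 ± 1.28 (SD, n = 6), by 3.16 (limma-trend adjusted p = 1.37e-07). The locus that joins Mir124a-1hg with Mir124a-1, a gene of the neuronal miR-124, has the same range. It was at 18.6 ± 4.61 and 25.9 ± 9.24 FPKM and was not called (0.43, adjusted p = 0.292). Loci with Mir124-2hg were higher by 0.90 and 0.49. Mir99ahg, the host of miR-99a, let-7c and miR-125b, was higher at 3 loci, by 2.99, 1.75 and 1.30, and the locus of Mir143hg and Mir145a by 0.99. The loci of Mir22hg and Mir17hg, the second of which carries the miR-17 to miR-92 cluster, were not called (0.01 and -0.14). Of these 10 loci, several carry the names of overlapping transcripts and share sequence ranges, so they are not independent.

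Where a microRNA name stands beside other gene names in 1 locus, differences went both ways. Of 214 such tested loci 25 (11.7%) were higher and 15 (7.01%) lower, beside 19.0% and 5.61% of all tested loci, with a median log2 difference of -0.01. Among those with the largest rises, picked for their size, were Mir205 with RP23-392F1.1, from 0.390 ± 0.072 to 3.93 ± 1.16 FPKM (3.00), Mir351 with RP23-173F3.5 (2.59), Mir130a with RP23-399J8.10, from 4.53 ± 0.97 to 26.1 ± 4.17 FPKM (2.52), and Dleu2 with Mir16-1, from 7.12 ± 1.06 to 33.9 ± 5.40 FPKM (2.23). Their limma-trend adjusted p-values were 2.33e-08, 1.69e-07, 1.2e-09 and 6.99e-10, and the loci of Mir205 and Mir351 reached the filter through KO libraries. The partner is a clone-named transcript in the first 3 and the long non-coding RNA gene Dleu2 in the last. At Mir1894 with Ppp1r10, which encodes a protein phosphatase regulator, the rise was from 27.2 ± 1.21 to 71.1 ± 7.57 FPKM (1.38). The deepest fall was at Slpi with Mir7678, by 0.97, from 1.57 ± 0.32 to 0.787 ± 0.34 FPKM. In these loci the RNA of the microRNA gene and that of the partner gene cannot be told apart.

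Most genes that make and use microRNAs were not called. Of 36 listed genes, which cover the Microprocessor, export, Dicer and its partners, Argonautes, the TNRC6 proteins and known regulators, all 36 were tested, 5 (13.9%) were higher and 0 lower, with a median log2 difference of 0.04. The share called higher is no larger than the 19.0% of all tested loci, so it is no result about these genes as a group. Drosha was at 50.6 ± 0.82 FPKM (SD, n = 5) in WT and 52.7 ± 2.65 (SD, n = 6) in KO, Xpo5 at 31.8 ± 1.63 and 32.8 ± 4.06, Dicer1 at 26.2 ± 2.35 and 26.9 ± 2.98, and Ago2 at 13.1 ± 1.16 and 13.97 ± 1.40. None of these was called (limma-trend adjusted p = 0.335, 0.792, 0.834 and 0.423). Those called higher were Lin28a and Lin28b, which block let-7 maturation, by 0.80 and 0.40, Trim71, a let-7 target gene of early embryos, by 0.67, the locus that joins Srrt, which links the nuclear cap to Drosha, with Mir7036, by 0.31, and the locus that joins Dgcr8 with Ranbp1, by 0.17 (adjusted p = 0.00366, 0.00154, 0.0162, 0.00132 and 0.00994). Lin28a and Trim71 were low, at 0.671 ± 0.156 and 0.392 ± 0.140 FPKM in WT, Trim71 reached the filter through KO libraries, and the changes at the joint loci cannot be assigned to Srrt or Dgcr8.

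**Figure D5:**
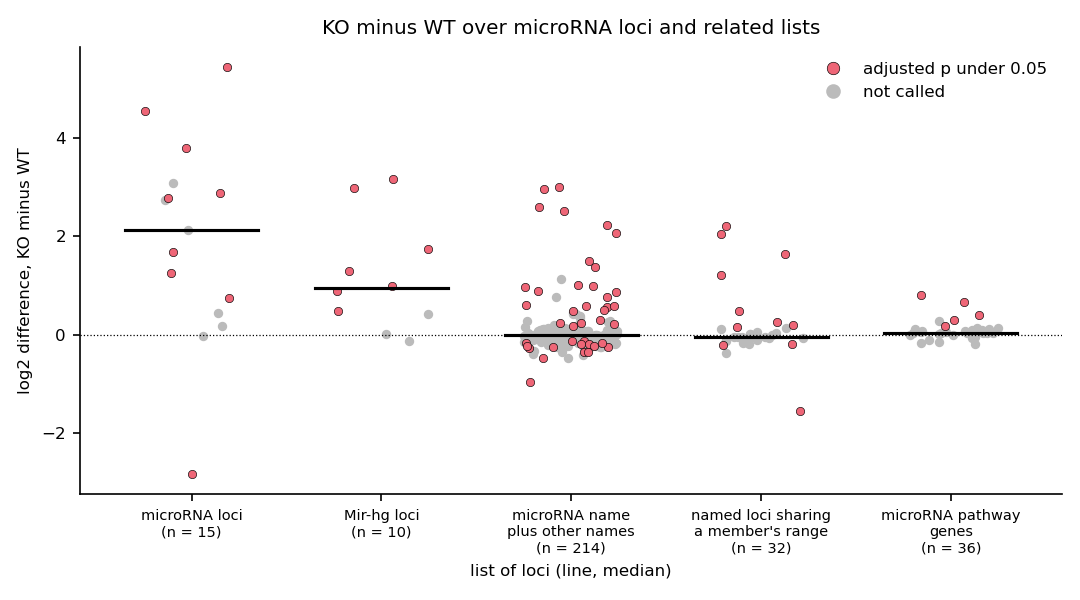
Log2 difference of KO minus WT (y axis) for each tested locus in 5 lists (points; red, adjusted p under 0.05; line, median). The microRNA loci and the Mir-hg loci have medians of 2.13 and 0.94, while the medians of the multi-name loci, the loci sharing a range and the pathway genes lie between -0.05 and 0.04; the microRNA loci were chosen on detection and those entering through KO libraries had to be higher there.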

How the data were processed

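Whole E12.5 heads were kept in RNAlater and homogenized, and stranded mRNA libraries were made from total RNA, per the labels' protocols. Tools listed in the submitters' processing notes are TopHat2 2.1.0, Cuffdiff, Partek, bcl2fastq and FastQC 0.10.0, with the genome build mm10. The strand setting and gene models were not given in the sources used here. Deposited by the authors were FPKM values per locus and library, and a matrix of log2 FPKM values with equal quartiles that is blank where FPKM is 0. No counts were recovered, so depth and counting error are unknown. The smallest FPKM steps of each library gave its depth relative to WT1. An FPKM of 0 means no fragment assigned or no estimate.

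Group differences were tested with limma-trend (limma 3.58.1, R 4.3.3, robust) on log2(FPKM + 0.1) of loci that reached 0.5 FPKM in 3 or more libraries, in 1 fit of all libraries with no covariate, with Benjamini-Hochberg adjustment over all tested loci. The fit was tested on simulated data. Zcchc8 was compared by exact permutation with scipy 1.17.1, doubling the smaller tail (Python 3.11.15, pandas 2.3.3, numpy 2.4.6, matplotlib 3.10.9). Coordinates count from 1. Hairpins, hosts and distances are from GENCODE M21 and sequences from RefSeq, all of build GRCm38.

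The loci and lists were chosen with earlier results of these data known. Named were Zcchc8, called members, members with a median of at least 1 FPKM, the 8 largest rises and falls among tested members, members at 0 in all libraries of 1 genotype and above 0 in all of another, their hosts, Drosha, Dgcr8, Xpo5, Dicer1, Ago2, called pathway genes, called Mir-hg loci and the members nearest the rule's limit. The other names of loci that share a range or carry several names were chosen after their values were seen. Alternatives were pseudocounts of 0.5 and 1, no filter, a stricter filter, common median, quantile normalization, the authors' matrix, a replicate block, fits of the compared groups only, library weights and leaving out each library.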

Additional observations from a re-analysis of the deposited data

Results flagged for a closer look

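In 3 of 40 groups of values (22 loci in WT and in KO, where the values were not all equal), 1 library lay far from the rest of its group by Dixon's gap test. The test's critical value is set to flag about 1 in 20 groups of normally distributed values, or 2 of 40. Several groups here hold zeros, and a single value above 0 among zeros, as at Mir133c, is always flagged. That rate therefore does not hold for such groups. At Mir8102, KO1 stood at 13.09 FPKM, above KO4 and KO6 at 2.76 and 2.16 FPKM and 3 KO libraries at 0. At Mir133c, WT1 stood at 0.08375 FPKM while the other 4 WT libraries were at 0. At Mir3569, KO3 stood at 0.9059 FPKM while the other KO libraries were at 0.533 to 0.6247 FPKM, and the KO call was kept without KO3.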

How the results depend on the processing

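Mir7655, Mir199b, Mir1946b, Mir7228, Mir7-2 and Mir5620 kept their direction and KO against WT call under every alternative that could be run for them and in all 14 fits without 1 library. All of these but Mir7-2 reached the filter through KO libraries and had to be higher there. Quantile normalization reversed these signs: -0.10 for Mir8105, -0.72 for Mir31 and -0.25 for Mir3569 in KO against WT, and -0.88 for Mir31 and -0.052 for Mir3569 in KO against HET. Uncalled differences that changed sign with it were those of Mir218-2 in KO against WT (-0.096) and of Mir149 and Mir8105 in KO against HET (-0.47 and -0.31). Beside 8 microRNA loci higher in KO than WT, the stricter filter gave 5 of 8 tested, and fits without 1 library 7 to 8. Beside 1 lower, there were 0 with no filter, the stricter filter and the authors' matrix (in neither of which Mir652 could be tested) and the replicate block, 3 with quantile normalization, and 0 to 1 without 1 library. In KO against HET, quantile normalization called 1 lower. For the loci sharing a member's range (8 higher, 3 lower), the authors' matrix gave 13 higher and 1 lower, the replicate block 5 and 1, no filter and the compared groups only 1 lower, the common median and library weights 5 lower, and fits without 1 library 5 to 8 higher (5 without WT2) and 1 to 4 lower (1 without WT2, WT4, WT5 or KO6). For the pathway genes (5 higher, 0 lower), the stricter filter gave 3 higher, the authors' matrix 20, library weights 8 and fits without 1 library 5 to 9 (9 without KO5), and common median and quantile normalization gave 1 lower, as did fits without KO5 or KO6 (range 0 to 1). For the loci with several names (25 higher, 15 lower), the authors' matrix gave 67 higher and 2 lower, quantile normalization 29 lower, the replicate block 8 lower, and fits without 1 library 7 to 19 lower (7, 9 and 8 without WT1, WT2 and WT3). Counting a host only where the hairpin lies in a coding gene on its strand gave 7 of the 22 loci in place of 15. The causes were not tested.

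The numbers in the library names paired no samples: over 11 pairs of libraries with the same number, deviations from the group means correlated by -0.114 to 0.1, and over 52 other pairs by -0.115 to 0.106. With the replicate number as a block, all loci gave 3198 higher and 645 lower calls, and Mir8105 and Mir652 had adjusted p-values of 0.0841 and 0.122 (limma-trend). Most of these loci lie near 1 FPKM or below in files without counts, so a locus at 0 may be undetected and no counting error can be given.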
